A study of Mus musculus with 16 samples.

Results

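Astrocytes in culture clear glutamate and are told from neurons by a small set of transcripts, and 9 of those transcripts were followed across 16 libraries of mouse cortical neuron cultures. The genes were listed by name, 2 for glutamate uptake (Slc1a2 and Slc1a3) and 7 for astrocyte identity (Aqp4, Gfap, Aldh1l1, Gja1, Aldoc, Sox9 and S100b). All 9 were found among the 16934 genes of the count table, and all 9 were among the 13139 genes with enough counts to test.

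The cultures were primary cortical neurons from C57BL/6 mouse embryos of embryonic day 15 to 16, kept for 14 days. Some cultures took up fibrils of α-synuclein, the protein deposited in neurons in Parkinson's disease, which carried the dye Atto488 and were given at 0.1 µM over 16 h. Microglia, the immune cells of the brain, were then added to some cultures for 6 h. Each of the 4 groups gave 4 libraries: loaded neurons with microglia, untreated neurons with microglia, loaded neurons kept without microglia (alone) and untreated neurons alone. The labels leave unsaid whether RNA was taken from neurons separated from the microglia. Nor is it stated that the libraries of a group are separate cultures or animals, so the p-values describe only the scatter of these libraries, and that scatter may be technical.

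Glutamate released at synapses is removed mainly by astrocytes, through sodium-driven transporters in their membrane. Slc1a2 encodes GLT-1 and Slc1a3 encodes GLAST, the main such transporters of astrocytes. Glutamine synthetase then turns the glutamate taken up into glutamine, which is handed back to neurons. Among the identity genes, Gfap encodes an intermediate filament, Sox9 a transcription factor of the astrocyte lineage, Aqp4 a water channel and Gja1 the gap junction protein connexin 43. Aldoc encodes the glycolytic enzyme aldolase C and Aldh1l1 a folate enzyme. S100b encodes a calcium-binding protein that cells of the oligodendrocyte lineage also make.

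In the GRCm38 assembly with GENCODE M21 annotation, Slc1a2 lies at chr2:102658659-102790784 on the plus strand and Slc1a3 at chr15:8634124-8710764 on the minus strand. Gfap lies at chr11:102887336-102900912 (minus strand), Aldoc at chr11:78322968-78327781 (plus) and Sox9 at chr11:112782224-112787760 (plus). Aldh1l1 lies at chr6:90486427-90600203 (plus), Gja1 at chr10:56377330-56402513 (plus) and S100b at chr10:76253853-76261159 (plus). Exons of the antisense gene Gm13872 overlap those of Slc1a2, and without a stated strand setting reads from the shared stretch cannot be told apart. Gm13872 itself had between 0 and 174 counts per library. The antisense gene at Aldh1l1, Gm15756, had 0 counts in all 16 libraries. The lincRNA gene Gm45901 lies on the same strand as Aldh1l1 with overlapping exons and has no row of its own among the genes analysed here. Reads from the stretch that the 2 share cannot be told apart under any strand setting. Whether these overlaps lie at the 3′ transcript ends that were sequenced was not checked.

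RefSeq promoter windows on GRCm38.p6, running from 250 bases before to 50 bases after a listed start, were matched for 7 of the 9 genes, in 8 windows. They are shown for both transporters and for Gfap, Aldh1l1 and S100b, whose differences had the smallest p-values. Slc1a2 is at chr2:102706188-102706487 (+ strand), Slc1a3 at chr15:8710758-8711057 (- strand), Gfap at chr11:102897151-102897450 (- strand), Aldh1l1 at chr6:90550543-90550842 (+ strand) and S100b at chr10:76253586-76253885 (+ strand). For Slc1a2, Aldh1l1 and Gfap the RefSeq start lies inside the longer GENCODE span. Capitals mark matches to 3 motifs on either strand: the STAT motif TTCCNGGAA, the NFI half-site TTGGC and the SOX core ACAAT, each also found when its reverse complement is printed.
Slc1a2: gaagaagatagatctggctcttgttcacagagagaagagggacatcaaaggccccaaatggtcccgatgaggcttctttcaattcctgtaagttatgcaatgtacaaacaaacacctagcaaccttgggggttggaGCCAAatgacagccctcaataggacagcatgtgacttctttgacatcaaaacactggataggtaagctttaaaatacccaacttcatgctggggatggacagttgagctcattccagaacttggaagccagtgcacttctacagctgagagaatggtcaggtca
Slc1a3: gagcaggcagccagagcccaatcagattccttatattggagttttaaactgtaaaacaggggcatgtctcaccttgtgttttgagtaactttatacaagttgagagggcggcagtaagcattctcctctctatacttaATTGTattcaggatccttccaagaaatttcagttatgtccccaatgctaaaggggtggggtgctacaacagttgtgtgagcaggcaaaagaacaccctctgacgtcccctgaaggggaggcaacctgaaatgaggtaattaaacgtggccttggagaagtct
Gfap: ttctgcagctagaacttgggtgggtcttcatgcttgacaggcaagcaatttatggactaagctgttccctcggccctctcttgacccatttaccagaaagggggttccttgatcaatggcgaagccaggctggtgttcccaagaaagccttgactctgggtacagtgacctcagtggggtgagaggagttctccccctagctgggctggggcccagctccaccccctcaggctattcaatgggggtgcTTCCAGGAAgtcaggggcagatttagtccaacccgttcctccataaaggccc
Aldh1l1: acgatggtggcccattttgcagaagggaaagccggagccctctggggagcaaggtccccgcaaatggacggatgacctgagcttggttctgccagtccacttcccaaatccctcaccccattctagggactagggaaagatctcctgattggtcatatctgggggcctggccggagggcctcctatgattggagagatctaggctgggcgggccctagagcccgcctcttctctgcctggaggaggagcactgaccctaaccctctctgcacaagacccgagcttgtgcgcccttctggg
S100b: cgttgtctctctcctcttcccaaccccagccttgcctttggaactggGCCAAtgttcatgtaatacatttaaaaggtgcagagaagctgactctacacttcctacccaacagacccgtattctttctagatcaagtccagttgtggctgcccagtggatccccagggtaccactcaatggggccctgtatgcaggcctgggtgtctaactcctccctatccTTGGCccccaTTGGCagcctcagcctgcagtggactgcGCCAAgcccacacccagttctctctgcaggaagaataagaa
The Gfap window held the STAT motif with its first base 2 bases before the start, and a window of Aldoc held it as well. That motif was in 1.15% of all 32851 mouse windows of this length. The S100b window held 4 NFI half-sites and those of Slc1a2 and Aldoc 1 each, a motif found in 46.7% of all windows. The SOX core stood in the Slc1a3 window and in a window of Aldoc, against 31.0% of all windows. The Aldh1l1 window held none of the 3 motifs. These are matches of letters, not evidence of binding.

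Values are CPM, the count of a gene relative to its library's TMM-scaled total, and the kit reads 3′ ends, so they do not scale with transcript length. Total counts ran from 6511516 to 13986374 per library, and the 9 genes together took 0.101% to 0.721% of them. Each gene was counted in every library. All 10 neuronal markers listed for the check of cell type were detected, so both neuronal and astrocyte transcripts were present in these neuron cultures. Of 12 microglial markers, P2ry12 and Tmem119 were at 0 in all libraries. The summed level of the 12 was 16.9 to 1209 CPM in loaded neurons with microglia, 11.4 to 601 CPM in untreated neurons with microglia and 4.92 to 41.0 CPM in the 8 libraries of neurons alone. Replicate 1 of both microglia groups held the 2 highest values. Mean log2 CPM of the tested microglial markers was 6.34, -1.02, 1.98 and -1.17 by replicate in loaded neurons with microglia. It was 5.48, -0.44, -1.07 and -1.24 in untreated neurons with microglia and -1.73 to 0.78 in neurons alone. Apart from replicate 1 of both groups and replicate 3 of loaded neurons, the libraries with microglia thus lay within the range of neurons alone. Vascular and fibroblast markers summed to 0 to 30.9 CPM and ependymal and choroid plexus markers to 0.631 to 101 CPM.

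Summed over the 9 genes, the level was 2218 ± 1176 CPM in loaded neurons with microglia and 2964 ± 2429 CPM in untreated neurons with microglia. It was 5543 ± 2301 CPM in loaded neurons alone and 3692 ± 2353 CPM in untreated neurons alone (SD, n = 4 each). For 7 of the 9 genes the mean log2 CPM was highest in loaded neurons alone, followed by untreated neurons alone. Lower still came untreated and, last, loaded neurons with microglia. Gfap ran from loaded neurons alone through loaded and then untreated neurons with microglia to untreated neurons alone. S100b was highest in loaded neurons with microglia and next in loaded neurons alone, and both untreated groups came after them, the one with microglia above the one alone. The distance between the highest and lowest group mean was 1.04 (Aqp4) to 2.63 (Aldh1l1) on the log2 CPM scale. No gene of the 9 passed an adjusted p of 0.05 in any comparison by edgeR's quasi-likelihood test, so no tested difference between neighbours in these orders exceeded the spread between libraries at that threshold. In bulk libraries, fewer astrocytes and less RNA per astrocyte cannot be told apart.

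**Figure D1:**
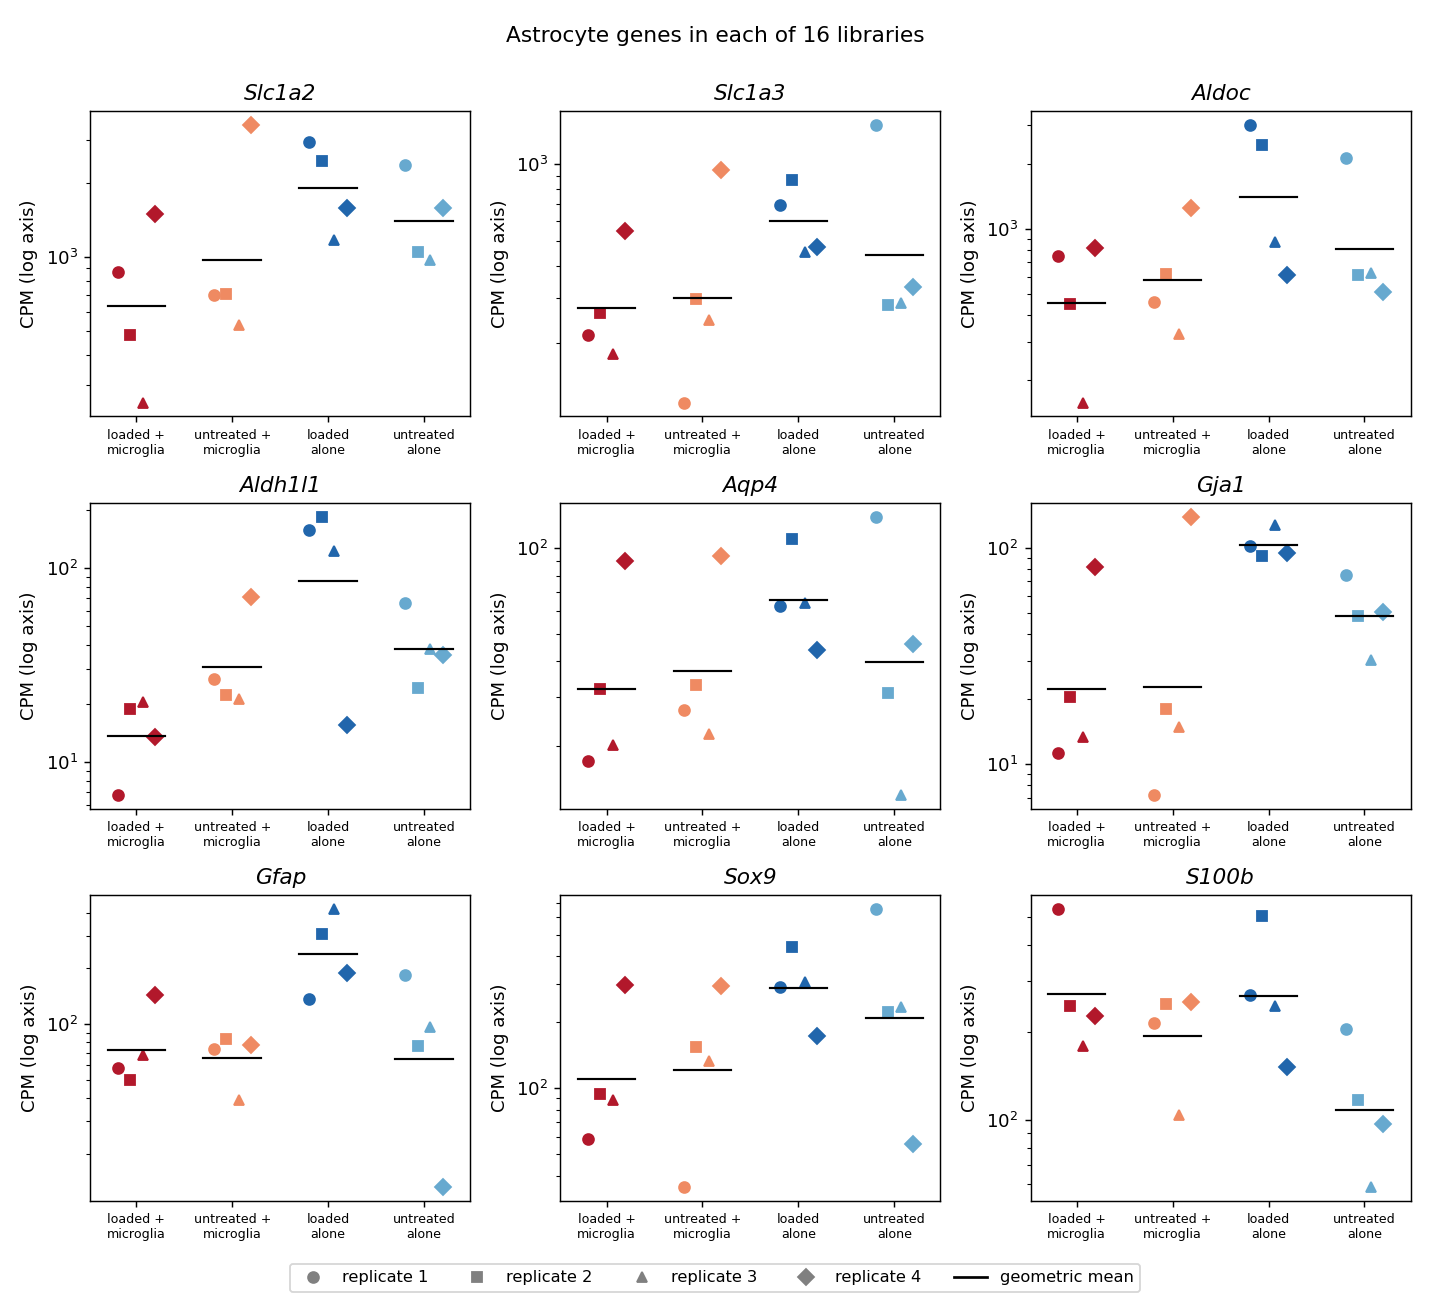
CPM of each of the 9 genes (log axis, 1 panel per gene) in the 4 libraries of each group, with symbols for the replicate number and a line at the geometric mean. Gja1 in the 4 libraries of loaded neurons alone lies between 91.5 and 128 CPM. In both groups with microglia replicate 4 stands high, at 139 CPM with untreated and 81.5 CPM with loaded neurons.

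The first comparison asked what the transporters did when loaded neurons were joined by microglia. Slc1a2 had 873, 484, 256 and 1499 CPM in loaded neurons with microglia (replicates 1 to 4), against 2947, 2455, 1177 and 1588 CPM in loaded neurons alone. Only replicate 4 with microglia exceeded any library of loaded neurons alone, and it exceeded 1 of them. The fitted log2 difference was -1.39 ± 0.62 (SE; 95% interval -2.71 to -0.08), with an edgeR adjusted p of 0.395. Slc1a3 had 215, 263, 182 and 546 CPM in loaded neurons with microglia, against 688, 867, 454 and 476 CPM in loaded neurons alone. Again replicate 4 with microglia lay among the libraries of neurons alone and the other 3 lay below all of them. Its log2 difference was -1.04 ± 0.63 (edgeR adjusted p = 0.581).

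Aldh1l1 showed the widest difference of the 9 genes in that comparison. It had 6.78, 18.8, 20.4 and 13.4 CPM in loaded neurons with microglia, against 157, 183, 122 and 15.4 CPM in loaded neurons alone. The groups overlapped through replicate 4 of loaded neurons alone, which stood far below the other 3 of its group. The log2 difference was -3.00 ± 0.64 (95% interval -4.33 to -1.67), or 8.02-fold lower, with an edgeR adjusted p of 0.0645. It ranked 21 of 13139 genes by p, and 15 genes, 0.114% of those tested, passed. Aldh1l1 did pass with DESeq2 (adjusted p = 0.000251), without a filter on low counts (adjusted p = 0.036), and by edgeR without replicate 4 of loaded neurons alone (log2 difference -3.37, adjusted p = 0.00954), without replicate 4 of untreated neurons with microglia (adjusted p = 0.0453) or without replicate 1 of untreated neurons alone (adjusted p = 0.0496). Its adjusted p was 0.314 with limma-voom, and ran from 0.000251 to 0.314 over all alternatives.

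Gfap had 57.6, 49.6, 68.2 and 144 CPM in loaded neurons with microglia, against 136, 305, 417 and 189 CPM in loaded neurons alone. The groups met where replicate 4 with microglia exceeded replicate 1 alone. The fitted log2 difference was -1.71 ± 0.56 (edgeR adjusted p = 0.252). Gja1 had 11.2, 20.4, 13.4 and 81.5 CPM in loaded neurons with microglia, against 103, 91.5, 128 and 94.9 CPM in loaded neurons alone. It was the only one of the 9 whose groups did not overlap here, and 2.91% of all genes tested were lower without overlap. Its log2 difference was -1.72 ± 0.77 (edgeR adjusted p = 0.392), and -2.80 without replicate 4 with microglia, the highest of its group.

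Aldoc had 158 to 812 CPM (median 599.5) in loaded neurons with microglia, against 609 to 3017 CPM (median 1649) in loaded neurons alone. Its log2 difference was -1.68 ± 0.65 (edgeR adjusted p = 0.342). Aqp4, at chr18:15389496-15410982 on the minus strand, ran from 17.8 to 90.1 CPM in loaded neurons with microglia, against 43.9 to 108 CPM in loaded neurons alone. Sox9 ran from 59.0 to 296 CPM in loaded neurons with microglia, against 173 to 438 CPM in loaded neurons alone. Both overlapped between groups, with log2 differences of -0.80 ± 0.65 for Aqp4 and -1.16 ± 0.69 for Sox9. Without replicate 4 of loaded neurons with microglia they were -1.58 and -1.9.

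S100b did not share the direction of the other 8. It had 531, 247, 179 and 227 CPM in loaded neurons with microglia, against 269.8, 504, 247 and 152 CPM in loaded neurons alone, and the groups overlapped. The log2 difference came to 0.01 ± 0.43 (95% interval -0.87 to 0.90), and without replicate 1 of loaded neurons with microglia it was -0.43. Over the 9 genes, 8 had a negative log2 difference, with a median of -1.39, beside a median of -0.03 over all genes tested. An unadjusted edgeR p under 0.05 was reached by 5 of the 9, all lower in loaded neurons with microglia, beside 6.26% of all genes lower at that p. None of the 9 was called.

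The second comparison asked the same of untreated neurons. Slc1a2 had 699.7, 709, 527 and 3460 CPM in untreated neurons with microglia, against 2364, 1049, 975 and 1590 CPM in untreated neurons alone. Of the libraries with microglia, 3 lay below all those alone and replicate 4 above all of them. The log2 difference was -0.15 ± 0.61 (95% interval -1.44 to 1.14; edgeR adjusted p = 0.999), and without replicate 4 with microglia it was -1.21. Slc1a3 had 118, 298, 247 and 948 CPM in untreated neurons with microglia, against 1417, 282, 288 and 332 CPM in untreated neurons alone. Each group held 1 library far above the rest. Its log2 difference of -0.53 ± 0.62 was 0.42 without replicate 1 of untreated neurons alone and -1.39 without replicate 4 with microglia.

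S100b had 215, 251, 104 and 255 CPM in untreated neurons with microglia, against 206, 118, 58.9 and 96.9 CPM in untreated neurons alone. All but 1 library with microglia exceeded every library alone. It was the only one of the 9 with a positive log2 difference, 0.78 ± 0.43 (edgeR adjusted p = 0.656). The other 8 ran from -0.92 (Sox9) to -0.15 (Slc1a2). The median over the 9 was -0.32, beside -0.02 over all genes. None of the 9 was called, while 16 genes, 0.122% of those tested, were. Scaling by library totals alone moved the median of all genes by 0.205 in this comparison, and 4 of the 9 were then higher and 5 lower.

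Fibrils were compared with no fibrils in neurons alone. Gfap had 136, 305, 417 and 189 CPM in loaded neurons alone, against 184, 76.1, 96.4 and 13.2 CPM in untreated neurons alone. Loaded replicate 1 lay below untreated replicate 1, and the other 3 loaded libraries lay above all untreated ones. The fit gave a log2 difference of 1.5 ± 0.56 (95% interval 0.35 to 2.66; edgeR adjusted p = 0.695). Aldh1l1 had 157, 183, 122 and 15.4 CPM in loaded neurons alone, against 65.8, 24.0, 38.3 and 35.5 CPM in untreated neurons alone. Loaded replicate 4 was the lowest of the 8 and the other 3 loaded libraries the highest. The log2 difference came to 1.54 ± 0.61 (edgeR adjusted p = 0.695).

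S100b in neurons alone had 269.8, 504, 247 and 152 CPM with fibrils, against 206, 118, 58.9 and 96.9 CPM without. The groups overlapped only through loaded replicate 4 and untreated replicate 1. The fit gave a log2 difference of 1.29 ± 0.44 (95% interval 0.39 to 2.19; edgeR adjusted p = 0.643). Gja1 in neurons alone had 103, 91.5, 128 and 94.9 CPM with fibrils, against 75.3, 48.4, 30.2 and 50.6 CPM without. Its groups did not overlap, as in 1.96% of all genes on the higher side, and the log2 difference was 1.03 ± 0.76.

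Slc1a2 in loaded neurons alone overlapped with untreated neurons alone, with a log2 difference of 0.45 ± 0.61 (95% interval -0.84 to 1.74). The differences were 0.84 ± 0.63 for Aldoc, 0.34 ± 0.65 for Aqp4, 0.10 ± 0.62 for Slc1a3 and 0.05 ± 0.68 for Sox9. Leaving out 1 library at a time, they ran from 0.45 to 1.57 for Aldoc and from 0.02 to 1.21 for Aqp4, both highest without untreated replicate 1. Slc1a3 and Sox9 had no stable sign: without untreated replicate 1 their log2 differences were 1.05 and 0.82, and without loaded replicate 2 they were -0.10 and -0.18. Sox9 was also at -0.002 with scaling by library totals. Over the 9 genes the median was 0.84, beside -0.06 over all genes. An unadjusted p under 0.05 was reached by 3 of the 9, all higher, beside 4.03% of all genes higher at that p. No gene of the 13139 passed the adjusted threshold by edgeR (0% called, 909 with an unadjusted p under 0.05), while DESeq2 called 173, with none of the 9 among them.

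In co-culture, the log2 difference between loaded and untreated neurons was negative for 7 of the 9 genes and positive for Gfap (0.23 ± 0.54) and S100b (0.52 ± 0.43). Aldh1l1 had 6.78, 18.8, 20.4 and 13.4 CPM in loaded neurons with microglia, against 26.7, 22.3, 21.2 and 71.0 CPM in untreated neurons with microglia. The groups did not overlap, as in 1.04% of all genes on the lower side, although the nearest libraries were close. The log2 difference was -1.25 ± 0.61 (95% interval -2.5 to 0.01; edgeR adjusted p = 1). No gene was called in this comparison by edgeR (0% of those tested, 483 with an unadjusted p under 0.05), and DESeq2 called 130. Without replicate 4 of untreated neurons with microglia, 8 of the 9 differences were positive, that of Slc1a2 being 0.27 in place of -0.79, and that of Aldh1l1 was -0.65.

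The interaction, the microglia difference in loaded neurons minus that in untreated neurons, was negative for all 9 genes, with a median of -1.13. It was -2.79 ± 0.86 for Aldh1l1 (95% interval -4.57 to -1.01; edgeR adjusted p = 1), the only one of the 9 with an unadjusted p under 0.05, beside 2.35% of all genes on that side. For Slc1a2 it was -1.24 ± 0.86 (95% interval -3.08 to 0.59) and for Slc1a3 -0.52 ± 0.88. No gene was called by edgeR (0% of those tested, 529 with an unadjusted p under 0.05), and DESeq2 called 187. Without replicate 4 of untreated neurons with microglia the interaction was positive for Slc1a3 (0.35), Aqp4 (0.21), Gja1 (0.21) and Sox9 (0.28). So a different microglia effect with and without fibrils was not shown for any of the 9. The comparisons share groups, so their values for a gene are not independent of each other.

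**Figure D2:**
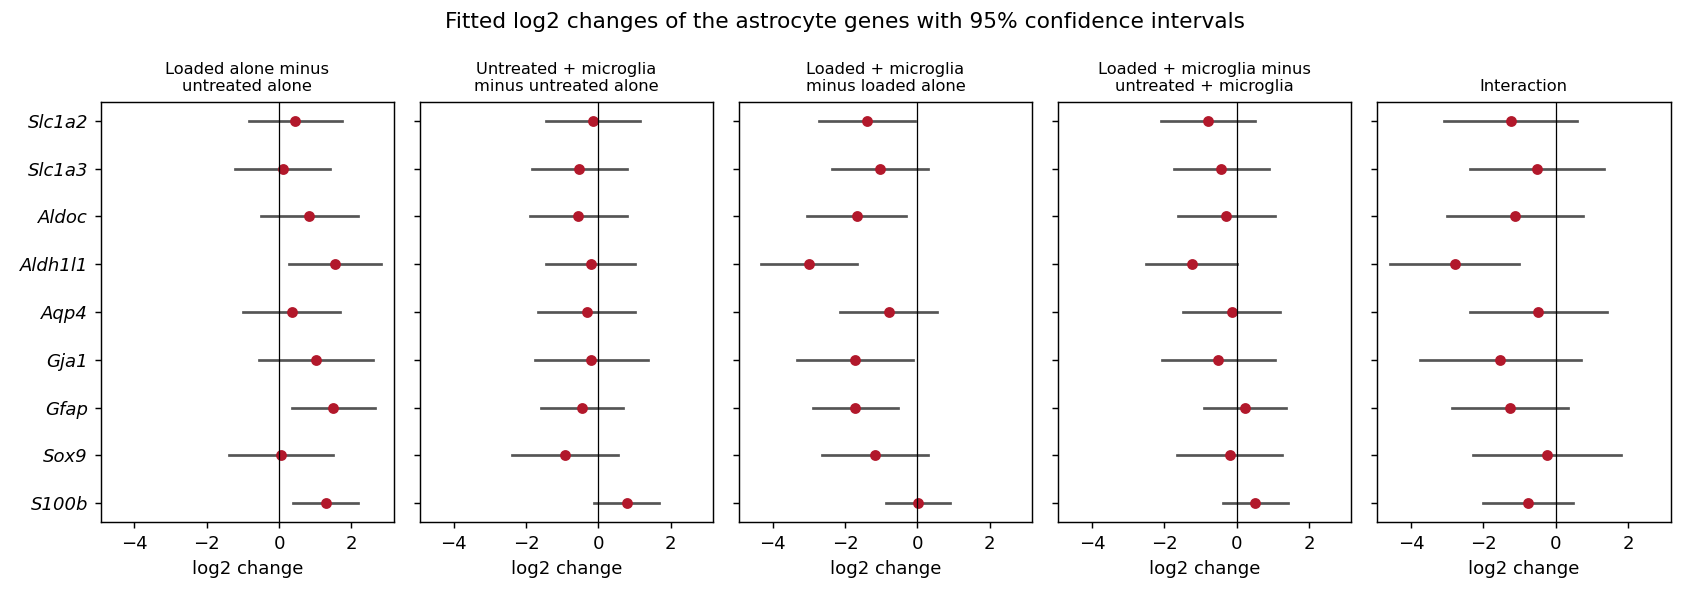
Fitted log2 difference (x axis) of each of the 9 genes (y axis) in the 4 comparisons and their interaction, the microglia difference in loaded minus that in untreated neurons; points are edgeR estimates and bars 95% confidence intervals. In loaded neurons with microglia minus loaded neurons alone, 8 points lie left of 0 and S100b lies at 0.01; the interval of Aldh1l1 reaches from -4.33 to -1.67.

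Leaving out replicate 1 of both microglia groups, the libraries with the highest microglial markers, left none of the 9 called in any comparison. It left 0 of all genes called for microglia with untreated neurons, in place of 16, and 17 for microglia with loaded neurons, in place of 15. The log2 difference of Aldh1l1 between loaded neurons with microglia and loaded neurons alone was then -2.76 and that of S100b -0.43.

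The ratio of Slc1a2 to Slc1a3 CPM, computed after the values were seen, tracked the balance of the 2 transporters within a library. It was 4.06, 1.84, 1.40 and 2.74 in loaded neurons with microglia and 5.94, 2.38, 2.13 and 3.65 in untreated neurons with microglia. It was 4.28, 2.83, 2.59 and 3.34 in loaded neurons alone and 1.67, 3.71, 3.39 and 4.80 in untreated neurons alone. The groups overlapped throughout. The log2 difference of the ratio was -0.47 between loaded neurons with microglia and loaded neurons alone (exact two-sided permutation p = 0.286, adjusted over 4 comparisons 0.686) and -0.48 between loaded and untreated neurons with microglia (exact p = 0.343, adjusted 0.686). For both other comparisons it was 0.02 and 0.03 (exact p = 1 and 0.943), and 4 libraries against 4 cannot go below 0.0286.

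Within groups, single libraries held most of the high values. Replicate 1 was the highest of untreated neurons alone for 9 of 9 genes. That library also had the highest share of counts in Rn45s, the ribosomal RNA precursor, of the 16 libraries. The share was 26.8%, against 11.6% to 15.1% in the rest of its group. It was 12.8% in replicate 4 of untreated and 9.35% in replicate 4 of loaded neurons with microglia. The part of this share in the astrocyte levels was not tested. Replicate 4 was the highest of untreated neurons with microglia for 8 of 9 and of loaded neurons with microglia for 7 of 9. The ratio of the highest to the lowest library within a group ran from 1.40 for Gja1 in loaded neurons alone to 19.3 for Gja1 in untreated neurons with microglia. The libraries with high astrocyte levels in untreated and loaded neurons alone were low in neuronal markers. Untreated replicate 1 summed to 7213 CPM over the 9 genes and 2793 CPM over the neuronal markers, and the other 3 untreated libraries to 2363 to 2732 and 5064 to 6718 CPM. Loaded replicates 1 and 2 alone summed to 7670 and 7384 CPM over the 9 genes, with 1454 and 1158 CPM of neuronal markers. Loaded replicate 4 alone had 3339 and 6470 CPM. With microglia, untreated replicate 4 had 6577 CPM over the 9 genes and 954 CPM over the neuronal markers, and loaded replicate 4 had 3710 and 1542 CPM. The neuronal markers ran from 916 to 2498 CPM in untreated and from 953 to 1564 CPM in loaded neurons with microglia. Loaded replicate 4 was thus near the top of its group for neuronal markers, unlike the high libraries of neurons alone. The part of the neuronal share in the astrocyte levels was not tested.

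Most of the 9 genes varied together from library to library. Pearson's r of log2 CPM over 16 libraries had a median of 0.61 over the 36 pairs and ran from 0.075 (Gja1 and S100b) to 0.88 (Slc1a2 and Aldoc). After adjustment over the 36 pairs, 24 passed a permutation test on r and 27 on Spearman's rho. Libraries were permuted across the groups, so differences between groups enter these p-values. The share of pairs of other genes that would pass was not computed. Slc1a2 and Slc1a3 had r = 0.836 (permutation p = 5e-05, adjusted 0.00036) and rho = 0.897 (p = 2e-05), and r = 0.819 without the 2 libraries farthest from the median of Slc1a2. Slc1a3 and Aqp4 had r = 0.87 (permutation p = 4e-05, adjusted 0.00036) and rho = 0.891 (p = 1e-05, the smallest that 100000 permutations can give), and r = 0.806 without 2 libraries. Around the group means, with group differences removed, the median r over pairs was 0.492, and these values of r were not tested. Genes counted in the same library share its depth and its mix of cells.

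S100b passed with 0 of its 8 partners by Pearson's r and with Aldoc alone by Spearman's rho (adjusted permutation p = 0.0312). Gfap passed with 3 of 8, and the other 7 genes with 6 or 7 of 8 each. Around the group means S100b and Aldoc had r = 0.73.

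**Figure D3:**
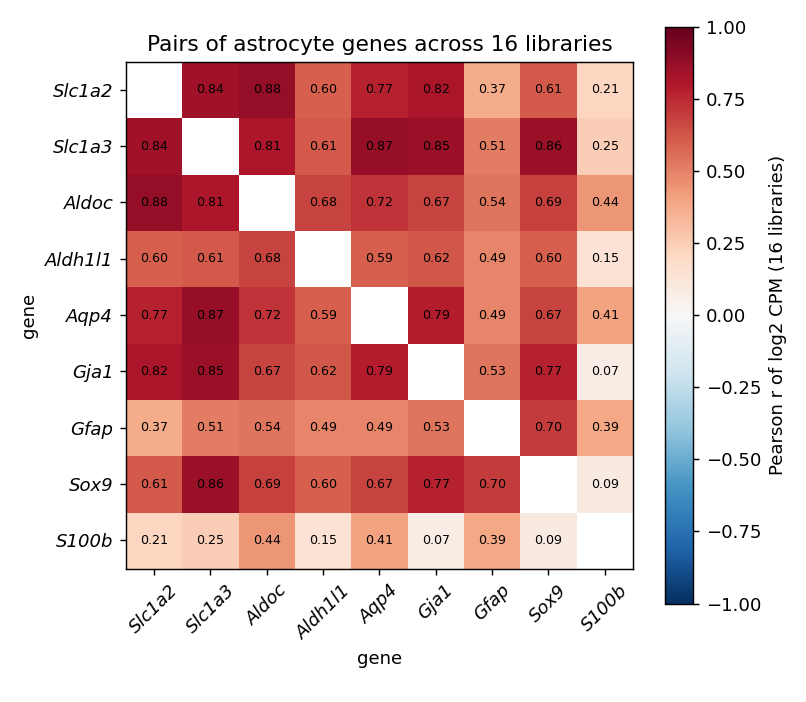
Pearson's r of log2 CPM across 16 libraries for each pair of the 9 genes, with the gene names on both axes and the colour scale from -1 to 1. The row of S100b runs from 0.075 to 0.443, while Slc1a2, Slc1a3, Aldoc, Aqp4 and Gja1 reach 0.67 to 0.88 with each other.

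Set against the other 8 genes in the same library, S100b had its highest values with microglia. Its log2 CPM minus the mean of the other 8 was 2.89, 1.5, 1.5 and 0.17 in loaded neurons with microglia and 1.63, 1.18, 0.39 and -0.28 in untreated neurons with microglia. It was -0.39, 0.22, -0.26 and -0.23 in loaded neurons alone and -0.92, -0.20, -1.09 and -0.14 in untreated neurons alone. Of the 8 libraries with microglia, 6 lay above all 8 libraries alone. The CPM of S100b itself were 296 ± 159 in loaded neurons with microglia, against 293 ± 150 in loaded neurons alone (SD). The other 8 genes each had a negative fitted log2 difference in that comparison. In untreated neurons S100b had 206 ± 70.4 CPM with microglia, against 120 ± 62.5 CPM alone. S100b was singled out after its values were seen, so this is a description without a test.

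Markers of the oligodendrocyte lineage were higher in the libraries with microglia. Summed over 12 markers they reached 7595 ± 1728 CPM in loaded neurons with microglia and 5336 ± 1709 CPM in untreated neurons with microglia. They reached 2390 ± 653 CPM in loaded neurons alone and 1484 ± 445 CPM in untreated neurons alone (SD, n = 4 each). The 8 libraries with microglia had 4009 to 9708 CPM and the 8 alone 1093 to 3015 CPM, with no overlap. All 12 markers had a positive log2 difference with microglia. In each of the comparisons with microglia 2 were called, beside 0.114% of all genes with loaded neurons and 0.122% with untreated neurons. Pdgfra, a growth factor receptor of oligodendrocyte precursors, had a log2 difference of 2.99 ± 0.41 with loaded neurons (edgeR adjusted p = 0.00237) and 2.35 ± 0.40 with untreated neurons (adjusted p = 0.0217). Also called were Enpp6, a choline phosphodiesterase of newly forming oligodendrocytes, with loaded neurons (2.17 ± 0.44, adjusted p = 0.0487) and Olig1, a transcription factor of the lineage, with untreated neurons (1.83 ± 0.37, adjusted p = 0.0407). Neuronal markers summed to 1305 ± 299 CPM in loaded neurons with microglia and 1636 ± 821 CPM in untreated neurons with microglia, and to 2978 ± 2440 CPM in loaded neurons alone and 5063 ± 1660 CPM in untreated neurons alone. Of the 10 neuronal markers, Thy1, a surface glycoprotein, was called lower with microglia, by a log2 difference of -2.41 ± 0.41 in loaded neurons (edgeR adjusted p = 0.0209) and -2.46 ± 0.42 in untreated neurons (adjusted p = 0.0217). With untreated neurons, none of these calls was left without replicate 1 of both microglia groups. Fitting only the compared groups called 0 of all genes with loaded neurons and 1 with untreated neurons. Of the 12 oligodendrocyte markers none was at 0 in any library. The part of these markers in the values of S100b and of the other 8 genes was not tested.

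**Figure D4:**
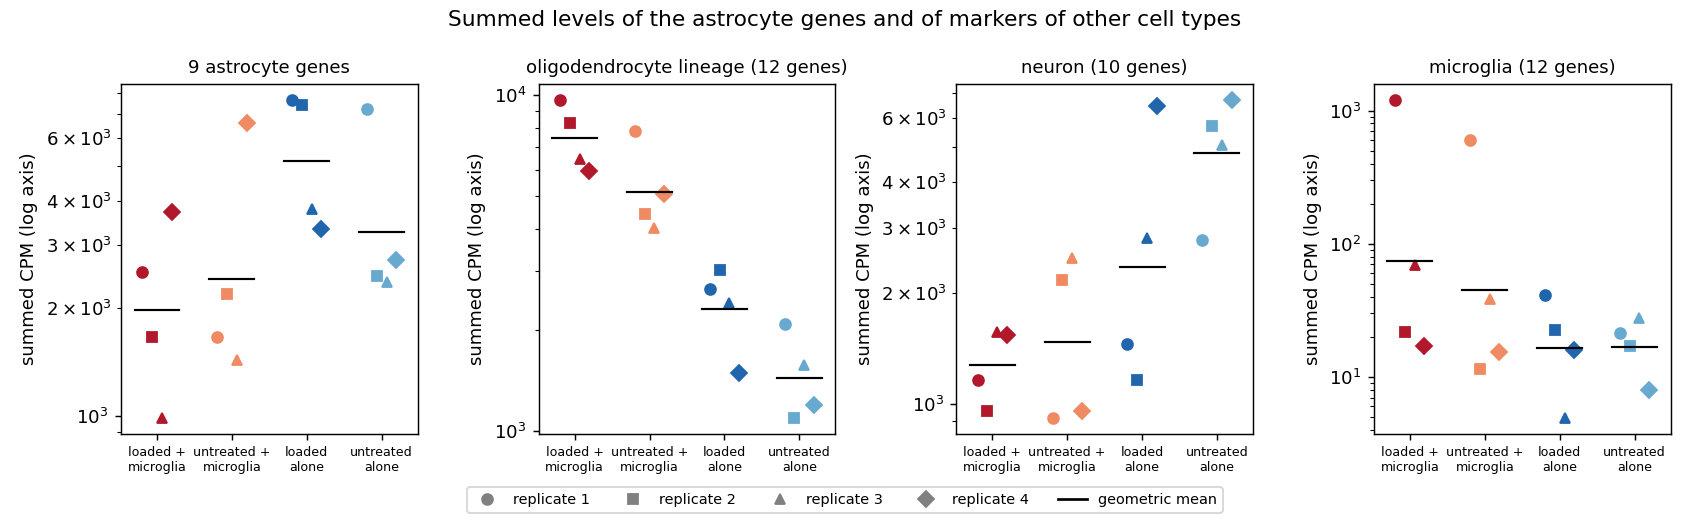
Summed CPM (log axis) of the 9 genes and of markers of the oligodendrocyte lineage, of neurons and of microglia in the 4 libraries of each group, with a line at the geometric mean. The oligodendrocyte markers lie at 4009 to 9708 CPM in the 8 libraries with microglia and at 1093 to 3015 CPM in the 8 alone, and the 9 genes overlap between all groups.

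Other genes of glutamate handling gave no called change. Of 24 tested of 26 listed, 20 had a negative and 4 a positive log2 difference between loaded neurons with microglia and loaded neurons alone, with a median of -1.06, and an unadjusted edgeR p under 0.05 was reached by 8 of the lower ones and 2 of the higher ones, beside 6.26% of all genes on the lower side and 5.46% on the higher. Glul, which encodes glutamine synthetase, had 423 ± 200 CPM in loaded neurons with microglia, against 885 ± 264 CPM in loaded neurons alone (log2 difference -1.07 ± 0.45, adjusted p = 0.37). Slc3a2, the heavy chain shared by several amino acid exchangers, had 469 ± 304 CPM in loaded neurons with microglia, against 1578 ± 859 CPM in loaded neurons alone (-1.75 ± 0.50, adjusted p = 0.191). Both are among the most abundant of the list. Between loaded and untreated neurons alone, 13 of the 24 were higher and 11 lower, with a median of 0.25.

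A wider list of astrocyte genes was counted in the same way. Of 39 tested of 40 listed, 38 had a positive log2 difference between loaded and untreated neurons alone (median 0.68), and 33 a negative one between loaded neurons with microglia and loaded neurons alone (median -1.21). None was called in any comparison. The 3 most abundant were the metallothioneins Mt1 and Mt2, which bind metals, and Cst3, a protease inhibitor. Mt1 had 3440 ± 1448 CPM in loaded neurons with microglia, against 13729 ± 9015 CPM in loaded neurons alone (log2 difference -2.0 ± 0.46, adjusted p = 0.0896), and untreated neurons alone had 4047 ± 2023 CPM. Mt2 had 18559 ± 11936 CPM in loaded neurons alone, against 5318 ± 1034 CPM in untreated neurons alone (1.80 ± 0.48, adjusted p = 0.567). Cst3 had 968 ± 799 CPM in loaded neurons with microglia, against 2240 ± 853 CPM in loaded neurons alone (-1.21 ± 0.49, adjusted p = 0.355).

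Genes linked to reactive astrocytes, which respond to injury or inflammation, were listed apart. Of 27 tested of 32 listed, 11 were higher and 16 lower between loaded and untreated neurons alone (median -0.38), and none was called in any comparison. With microglia, 8 were higher and 19 lower in loaded neurons (median -1.24) and likewise in untreated neurons (median -1.18). Means in this list went down to 0.765 CPM, and log2 differences between loaded and untreated neurons alone ran from -6.46 to 10.1. Vim, the most abundant of them and an intermediate filament gene, had 571 ± 418 CPM in loaded neurons alone, against 564 ± 760 CPM in untreated neurons alone. Cd44, an adhesion receptor, and S100a10, a partner of annexin, had log2 differences of -0.82 ± 1.17 and -0.09 ± 0.72 between those groups. Among 14 genes of radial glia, all tested, 8 were higher and 6 lower between loaded neurons with microglia and loaded neurons alone (median 0.44), and none was called. Pea15a, a signalling adaptor abundant in astrocytes, had 1676 ± 799 CPM in loaded neurons alone, against 653 ± 428 CPM in untreated neurons alone (1.36 ± 0.44, adjusted p = 0.634). Ddah1, an enzyme that degrades methylarginines, and Ptprz1, a receptor phosphatase, had log2 differences of 0.13 ± 0.32 and 0.31 ± 0.55 between those groups. Between loaded neurons with microglia and loaded neurons alone they were -1.21 ± 0.44 for Pea15a, -0.01 ± 0.32 for Ddah1 and 0.96 ± 0.55 for Ptprz1. These lists were chosen with earlier results of the same libraries known.

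Outside the 9, the genes whose log2 CPM was most like the mean of the 9 over the 16 libraries were found by Pearson's r, as a description. Mlc1, a membrane protein of astrocytes, came first at 0.95, and Gbe1 at 0.93, Tmem37 at 0.93 and Cbr3 at 0.92 were also among the closest. Glul stood at 0.91, Mt1 at 0.91, and Prnp, Tmem47 and Pdpn at 0.90 each. Around the group means, the genes named here had an r of 0.83 (Pdpn) to 0.93 (Gbe1). Mlc1, Glul and Mt1 were in the lists above.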

How the data were processed

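Messenger RNA of 16 libraries was measured with the QuantSeq 3′ mRNA-Seq FWD kit, which reads transcript ends, per the labels' protocols. The submitters' processing notes name mm10, STAR, Partek and DESeq2, without versions. How reads were counted, with which annotation and strand setting, and whether molecular identifiers were used is not given in the sources used here. Values analysed are whole-number counts for each gene symbol, as the authors deposited them, and their second, normalized table was not used.

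Counts were filtered with filterByExpr (minimum count 10, minimum total 15), leaving 13139 of 16934 genes, with TMM scaling, and a robust quasi-likelihood fit of all 16 libraries gave each group its own mean (edgeR 4.0.16, R 4.3.3). Each test was adjusted by Benjamini-Hochberg over all tested genes within its comparison, with calls at an adjusted p under 0.05. CPM use TMM-scaled totals, and log2 CPM a prior count of 2. Intervals of 95% come from the fit, and counting error alone is smaller than the true error, since copies made by PCR are not independent molecules. Total counts were 6511516 to 13986374 per library. Alternatives were DESeq2 1.42.0, limma-voom (limma 3.58.1), other scalings, no filter, only the compared groups, the replicate number as a block, and leaving out libraries. The edgeR fit was tested on simulated data with planted changes of at least 16-fold. Those are larger than any fitted difference of the astrocyte genes, so this test cannot say whether changes of their size would be found.

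Groups come from each sample's treatment label. Replicate numbers follow the order of library codes, and the labels do not say that a number marks a shared culture. No 2 libraries of a group agreed within sampling noise (chi-square per degree of freedom 69.2 to 259 over 24 pairs). The 9 genes were all named, as were the 3 most abundant genes of each list of glutamate, astrocyte and radial glial genes, any listed gene called, and the 10 genes most like the mean of the 9. Markers of other cell types were named only where called or at 0 in all libraries. A gene that this rule names is not reported here. The genes, lists and tests were chosen with earlier results of these data known, so nothing here is independent support for them. Positions come from GENCODE M21 on GRCm38, and promoter sequences from RefSeq on GRCm38.p6. Motifs were searched on both strands.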

Additional observations from a re-analysis of the deposited data

Results flagged for a closer look

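In 8 of 36 gene and group combinations, 1 of the 4 libraries stood apart from the other 3 by Dixon's test at its 95% critical value of 0.829, and each time it was the highest. About 1 in 20 groups would pass that value if the values were independent and normal. The genes share their libraries and most varied together, so an excess over chance was not measured. On the log2 scale 4 of 36 stood apart.

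Replicate 4 of untreated neurons with microglia accounted for 4 of them. It had 3460 CPM of Slc1a2 where the next highest library had 709, and 93.85 CPM of Aqp4 where the next had 33.0. It had 70.96 CPM of Aldh1l1 where the next had 26.65, and 139.2 CPM of Gja1 where the next had 18.05. Replicate 4 of loaded neurons with microglia had 81.52 CPM of Gja1 beside a next highest 20.4, and 296.4 CPM of Sox9 beside 94.33. Replicate 1 of untreated neurons alone had 1417 CPM of Slc1a3 beside 331.6, and 2118 CPM of Aldoc beside 627.9.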

How the results depend on the processing

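Counts of called genes depended on the test. With DESeq2 they were 173 for fibrils in neurons alone, 295 for microglia with untreated neurons, 492 for microglia with loaded neurons, 130 for fibrils in co-culture and 187 for the interaction. For microglia with untreated neurons (16 genes by edgeR) they were 76 with limma-voom, 50 with library totals (45 higher and 5 lower), 26 without a filter, 38 with the replicate block, 1 with only the compared groups and 0 without replicate 1 of both microglia groups. For microglia with loaded neurons (15 genes) they were 41, 31 (26 higher and 5 lower), 26, 42 and 0 under the first 5 of these. Of the 9 astrocyte genes, 1 was called for microglia with loaded neurons by DESeq2 and 1 without a filter, Aldh1l1 in both. The cause of these changes was not tested.

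The labels do not say that same-numbered libraries share a culture or batch. The final digits of their library codes do lie close together, with a library of every group in each set. Of their 24 pairs, 4 had an r of deviations above 0.1 (-0.111 to 0.217). Among pairs of different numbers it was 4 of 72, a smaller share. The replicate block was kept as an alternative and was not taken as pairing. A hint of likeness in the data remains: the median r was 0.044 for the same number and -0.013 over 72 pairs of different numbers, and 9 of 16 libraries correlated best with their own number. The block changed no call among the 9 genes, but it moved their median log2 difference. For microglia with loaded neurons the median was -1.697 with the block, in place of -1.392. It was -0.449 in place of -0.32 for microglia with untreated neurons and -1.256 in place of -1.125 for the interaction. For fibrils it was 0.856 in place of 0.84 in neurons alone and -0.234 in place of -0.285 in co-culture.

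Some differences near 0 changed sign. With library totals they were -0.002 for Sox9 with fibrils in neurons alone and, for microglia with untreated neurons, 0.076 for Slc1a2, 0.013 for Aldh1l1 and 0.025 for Gja1. Library totals moved the median of all genes by 0.205 there and by 0.213 with loaded neurons. With limma-voom they were 0.15 for Gfap (microglia with untreated neurons), -0.023 for S100b (microglia with loaded neurons) and 0.216 for Gja1 (fibrils in co-culture). Without replicate 1 of both microglia groups they were 0.084 for Slc1a2 and 0.183 for Gja1 (untreated neurons) and -0.426 for S100b (loaded neurons), which was -0.06 with the block.

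Leaving out 1 library at a time, called genes numbered 0 to 7 for fibrils in neurons alone (7 without loaded replicate 4), 0 to 39 for microglia with untreated neurons (0 without replicate 1 with microglia or replicates 2 or 3 alone, 39 without replicate 1 alone) and 1 to 27 for microglia with loaded neurons (1 without replicate 2 with microglia, 27 without untreated replicate 1 alone). Called astrocyte genes numbered 0 to 1 for microglia with loaded neurons. For microglia with untreated neurons the log2 difference ran from -1.211 to 0.163 for Slc1a2, -1.39 to 0.422 for Slc1a3, -1.005 to 0.544 for Aqp4, -0.789 to 0.137 for Gfap, -0.807 to 0.113 for Aldh1l1, -1.932 to 0.167 for Gja1 and -1.049 to 0.179 for Aldoc. All 7 were positive without untreated replicate 1 alone. For fibrils in co-culture it ran from -1.329 to 0.269 for Slc1a2, -0.873 to 0.448 for Slc1a3, -0.914 to 0.551 for Aqp4, -0.219 to 0.403 for Gfap, -1.579 to 1.24 for Gja1, -0.548 to 0.213 for Aldoc and -0.931 to 0.329 for Sox9. The positive ends came without replicate 4 of untreated neurons with microglia, except for Gfap, whose negative end came without replicate 4 of loaded neurons with microglia. For fibrils in neurons alone it ran from -0.129 to 1.046 for Slc1a3 and -0.296 to 0.821 for Sox9, and for S100b with microglia and loaded neurons from -0.425 to 0.408. The interaction ran from -1.341 to 0.208 for Aqp4, -2.607 to 0.212 for Gja1, -1.463 to 0.349 for Slc1a3 and -1.013 to 0.281 for Sox9. The log2 difference of the Slc1a2 to Slc1a3 ratio, added after the data were seen, ran from -0.293 to 0.215 for fibrils in neurons alone and from -0.276 to 0.233 for microglia with untreated neurons. The number of passing pairs was 24 with prior counts of 0.5, 2 and 5. With 4 libraries a group and this spread, differences near their standard errors were not detectable.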
